A study of Homo sapiens with 2 samples.

Results

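The models described here are the spliced transcript models of the human cell line GM12878 that the TALON program placed in its class NIC and that had 5 or more reads in each of 2 direct RNA libraries. There were 764 such models, of 36193 NIC models and of 237608 models of every class. They belonged to 427 genes. GM12878 is a B-lymphoblastoid line, made by transforming blood B cells with Epstein-Barr virus. The only group is this untreated line, with replicate 1 and replicate 2, and the labels do not say whether the replicates came from separate cultures, so differences between the libraries may be technical. After column extraction and a depletion step the RNA was read as native strands through Oxford Nanopore pores without PCR. The deposited values are whole-number read counts per model.

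An NIC model uses splice donors and acceptors that are all in the annotation, joined in a combination that no annotated transcript has. The known class holds models whose whole chain of introns is annotated. In the class NNC at least 1 splice site is absent from the annotation, and in an incomplete splice match (ISM) only part of an annotated chain is present. A genomic model lies over a gene but fits none of its spliced forms. An NIC model can differ from annotated transcripts by a skipped or included exon, by another alternative end of an exon, or by a pairing of distant choices that are each annotated in separate transcripts. Nanopore direct RNA reads start at the poly(A) tail, so an RNA strand that is broken or read incompletely loses its 5′ part.

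The deposited exon numbers and lengths of all 23533 known models matched GENCODE 29, on GRCh38, so that annotation was used for gene names, gene positions and annotated exon numbers. In 13 genes of the 764 models, which held 35 of them, GENCODE 29 splits an exon of some transcript by a gap of at most 20 bases. Of annotated genes with 20 or more reads in each library, 148 had such a gap, and 13 of them (8.78%) held a model. The share was 6.58% over all 6340 genes at that depth. The gaps are thus given as a description only. In the antizyme genes OAZ1 and OAZ2, whose proteins restrain polyamine synthesis and whose mRNA is read with a programmed ribosomal frameshift at a stop codon, the gap is a single base inside the coding sequence. In GPX4 and SELENOH, which encode selenoproteins, the gap is TGA, the codon that selenoproteins read as selenocysteine. These 4 stretches are shown because a read that runs through such a gap has 1 exon fewer than the transcript annotated with it. Each is given 5′ to 3′ on the gene's strand from GRCh38, and the capitals mark the bases annotated as the gap.
OAZ1, chr19:2271430-2271456, plus strand: tcggtggtgctccTgatgcccctcacc
OAZ2, chr15:64691502-64691528, minus strand: tctgtggtgctccTgatgcccctcacc
GPX4, chr19:1105390-1105418, plus strand: cgtggcctcccagTGAggcaagaccgaag
SELENOH, chr11:57741803-57741831, plus strand: ccctagcactagcTGAcgcgtctatgggc

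Joining the 1-base gap of transcript OAZ1-202 gives 5 exons, and no annotated OAZ1 transcript has that joined chain. All 4 OAZ1 models of the NIC set had 5 exons. The most abundant, ENCODEHT000304615, had 1217 reads in replicate 1 and 1069 in replicate 2, and a length of 1001 bases against 970 for the joined transcript. Joining the gap of OAZ2-201 likewise gives 5 exons with no annotated match, and the single OAZ2 model, ENCODEHT000319392, had 5 exons, with 39 and 15 reads. For OAZ2-206 and OAZ2-207 joining gives 4 exons, also with no annotated match, and no NIC model of the set had that exon number. For GPX4-212 and SELENOH-206 the joined chain is itself annotated, as GPX4-201 and SELENOH-204. In CDK1, the kinase that drives entry into mitosis, joining a 3-base gap of CDK1-209 gives 8 exons and 1887 bases, with no annotated match, and the NIC model ENCODEHT000679581 had 8 exons and 1890 bases, with 44 and 39 reads. The other genes with such gaps were mixed. No model had the joined exon number in EEF1D, GPX4, HNRNPC, KHSRP or RPS27A. The joined length minus the length of the leading model with that exon number was -625 bases in CNPY3, -411 in HLA-B, 1781 in EEF1A1, 482 in SELENOH and 14 in NDUFA10. For OAZ2-201 it was 66 bases, and for a further OAZ1 transcript with the gap, OAZ1-211, it was 148. Which exons a model holds was not analysed here, so these matches are of exon number and length only.

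The library totals were 1360368 reads in replicate 1 and 1510998 in replicate 2. Known models took 55.9% and 45.9% of the reads, ISM models 23.8% and 31.9%, genomic models 11.0% and 15.3%, and NIC models 4.12% and 2.89%, in that order of replicates. Replicate 2 thus had the larger share of incomplete models and the smaller share of known and NIC models. B cell markers were present in this B-lymphoblastoid line. MS4A1 had 360 and 416 reads, CD79A 936 and 1026, CD79B 113 and 125, PAX5 54 and 70, and CD22 201 and 292. The 3 T cell genes CD3D, CD3E and CD3G summed to 5 and 16 reads, all of them from CD3E, and the myeloid, erythroid, liver and fibroblast sums lay between 0 and 8.

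The 764 models held 24344 reads in replicate 1 and 20560 in replicate 2. These were 1.79% and 1.36% of the libraries (mean 1.58% ± 0.303, SD, n = 2). That was 43.5% and 47.2% of all NIC reads, although the models were 2.11% of the NIC models listed. Most were rare: the median was 13 reads in replicate 1 and 10 in replicate 2. The lower of the pair of counts was 10 or more for 370 models, 20 or more for 162, 50 or more for 56 and 100 or more for 23. The count chose the models, so these levels are a description. Just inside the threshold, 144 models had 5 as their lower count, with medians of 6 and 5 reads. Just outside it, 230 NIC models had 4 as their lower count, with medians of 5 and 4 reads. A further 821 NIC models had 5 or more reads in 1 library only.

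**Figure D1:**
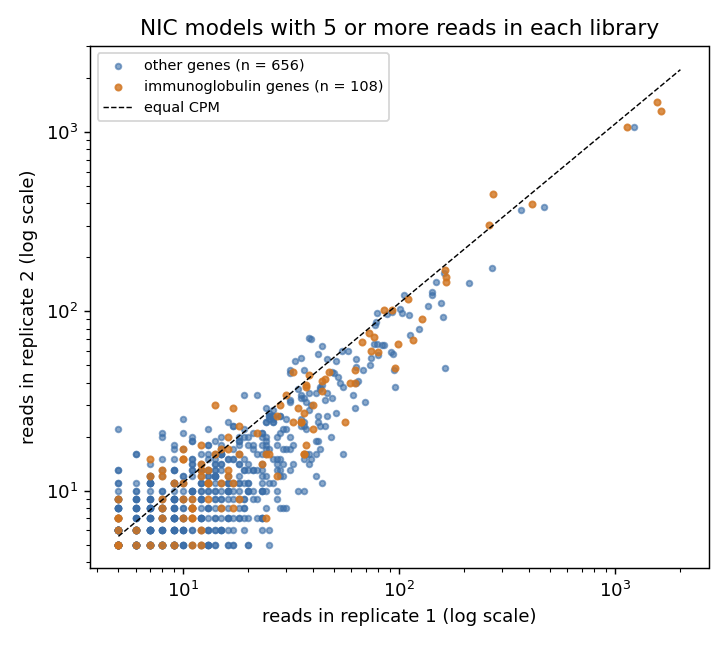
Reads of each of the 764 NIC models in replicate 1 (horizontal, log scale) and replicate 2 (vertical, log scale); each point is 1 model, orange for the 108 models in immunoglobulin genes, and the dashed line marks equal shares of the library totals. Most points lie below the line, and the models with over 1000 reads in both libraries belong to IGLV2-14 and OAZ1.

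Of the 427 genes, 306 had 1 model, 74 had 2, 35 had 3 to 5 and 12 had 6 or more. By GENCODE type, 405 were protein-coding. The others included 3 lincRNA genes, 3 antisense genes, 4 pseudogenes named NCF1B, PMS2P1, SMG1P6 and AC004967.1, and the snoRNA host genes GAS5, SNHG5 and SNHG6. The 4 pseudogenes have near-identical copies elsewhere, and assignment of their reads is uncertain. The counting's use of strand is not given in the sources used here, so antisense models are uncertain too. One gene is not in GENCODE 29: the TALON gene ENCODEHG000063972 had 5 models of 2 exons, each with 0.563% to 3.49% of the gene's 2168 and 888 reads.

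Since 5 reads of 1 model are needed in each library, genes with more reads could more easily hold such a model, and they did so more often. Among genes with 20 to 99 reads in each library (by the lower of the 2 counts), 110 of 4428 (2.48%) held at least 1. With at least 100 and under 1000 reads the number was 225 of 1740 (12.9%), and from 1000 reads upward it was 82 of 172 (47.7%). Within each of these ranges the genes that held a model had more annotated transcripts, with medians of 11, 11 and 10, than the genes that held none, with medians of 8, 8 and 7.

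**Figure D2:**
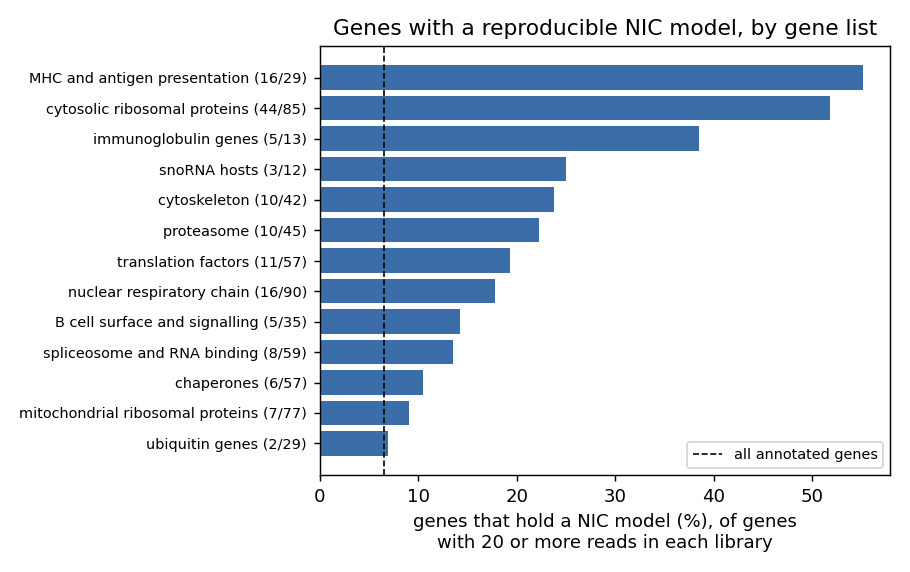
Percent of the genes in each list, among genes with 20 or more reads in each library, that held at least 1 NIC model with 5 or more reads in each library (bars, with the counts beside the list names); the dashed line is the 6.58% over all annotated genes. Antigen presentation, ribosomal protein and immunoglobulin genes have the longest bars.

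Of the 6340 annotated genes with 20 or more reads in each library, 417 (6.58%) held a model. The cytosolic ribosomal protein genes held the most models of any list. They encode the proteins of the cytoplasmic ribosome, and 44 of 85 (51.8%) held 116 models in all. Of these 85 genes, 73 had 1000 or more reads. They were 73 of the 172 genes at that depth, so the 47.7% there is in large part the same genes. Whether read depth accounts for the share of the list was not tested. RPS6, a small subunit protein phosphorylated downstream of growth signals, had 17 models, which together took 7.93% and 7.29% of its 7213 and 8713 reads. Its most abundant one, ENCODEHT000564531, had 161 and 163 reads and 6 exons, as many as the annotated model RPS6-204. The acidic stalk protein gene RPLP2 had ENCODEHT000213249 with 365 and 368 reads (7.28% and 6.44% of the gene), with 5 exons and 435 bases. RPL3, a core protein of the large subunit, had 7 models, RPL4 had 6, and the ribosome-bound scaffold gene RACK1, which stands outside the list, also had 6. Over the list, the median share of a model in its gene was 0.300% and 0.256%. Ribosomal protein genes have many processed pseudogenes, and reads could be split between copies.

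Genes of the major histocompatibility complex (MHC) and antigen presentation held 53 models, in 16 of 29 genes (55.2%). Of the 29 genes 11 had 1000 or more reads. These genes present peptides to T cells, and B-lymphoblastoid cells express both classes strongly. HLA-B, a class I heavy chain gene, had 10 models with 15.3% and 9.94% of its 3449 and 3663 reads. Its leading model ENCODEHT000565681 had 267 and 174 reads and 7 exons, 1 fewer than the annotated HLA-B-249. HLA-DRB1, a class II beta chain gene, had 8 models, and ENCODEHT000582653 alone had 468 and 382 reads, 17.7% and 13.6% of the gene. That model had 5 exons and 1929 bases, against 6 exons and 1229 bases for HLA-DRB1-201, so it was longer with fewer exons. HLA-C had 6 models with 6.06% and 3.55% of its reads, and CD74, the class II invariant chain, had 4. HLA genes are highly polymorphic and alike in sequence, and the reference may carry other alleles than this line, so assignment between them is uncertain.

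Immunoglobulin genes held 108 of the 764 models in 5 genes, and 35.4% and 38.4% of the reads of all 764. Immunoglobulin genes are rearranged in B cells, so the mRNA joins segments that lie far apart in the germline annotation. Which segments each model covers was not analysed here, so assignment of reads among immunoglobulin genes is uncertain. IGLV2-14 (chr22:22758700-22759218, plus strand), a lambda light chain variable segment, had 85 models that together took 75.8% and 61.3% of its 10119 and 11343 reads, and no known model had a read. GENCODE 29 gives this gene 1 transcript of 2 exons. Of its 85 models 4 had 2 exons, 50 had 3, 24 had 4 and 7 had 5, and the 24 models of 4 exons held the most reads, 4905 and 4361. The leading models were ENCODEHT000282497 (4 exons, 889 bases) with 1627 and 1300 reads, ENCODEHT000276769 (4 exons, 1007 bases) with 1557 and 1476, and ENCODEHT000276767 (4 exons, 1113 bases) with 1134 and 1060. The remaining models of this gene were far less abundant, the next with 413 and 394 reads.

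IGHA2, a constant region gene of the alpha heavy chain, had 19 models of 5 to 8 exons with a median length of 3869 bases, at 19.9% and 14.1% of its 4265 and 5941 reads. Its leading model ENCODEHT000424490 (5 exons, 3820 bases) had 272 and 448 reads, the largest gain relative to the library totals among the 15 most abundant models. IGHG1 had 2 models, with 45 and 42 reads and with 10 and 17 reads. IGHG4 had 1, with 36 and 27 reads of a gene total of only 42 and 44, and IGKV1-16 had 1, with 13 and 11 reads. The constant genes of the T cell receptor also held models: TRAC had 4, all of 5 exons, with 7 to 38 reads in replicate 1 and 8 to 28 in replicate 2, and TRBC2 had 2, of 4 exons, with 5 to 10 reads. The defining T cell markers CD3D and CD3G had 0 reads in both libraries, and CD3E had 5 and 16, while the TRAC gene had 210 and 222 reads and TRBC2 had 45 and 51.

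In the list of B cell surface and signalling genes 5 of 35 held 6 models. CD40, the receptor for T cell help, had ENCODEHT000635544 with 30 and 25 reads (12.9% and 9.33% of the gene), with 8 exons against 9 in CD40-202. CD70, a ligand of the tumour necrosis factor family, had ENCODEHT000337135 with 18 and 14 reads (4.16% and 2.25%) and 2 exons against 3. In both genes the model thus had 1 exon fewer than the leading annotated model, although the CD70 model was the longer of the pair (1303 against 913 bases). The other genes of the list with models were CD37, CD79B and FCER2.

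Of nuclear genes for the respiratory chain 16 of 90 held 20 models, with a median share of 2.25% and 1.63%. NDUFB9, a subunit of complex I, had ENCODEHT000545617 with 74 and 55 reads (16.7% and 13.03%), and COX5A, a subunit of cytochrome c oxidase, had ENCODEHT000382263 with 49 and 46 reads (6.47% and 5.14%). Among mitochondrial ribosomal protein genes 7 of 77 held 8 models, with a median share of 8.81% and 8.05%. There MRPL33 had ENCODEHT000276164 with 26 and 28 reads (33.8% and 34.6% of the gene), and MRPS11 had ENCODEHT000431001 with 25 and 26 reads (16.7% and 15.3%). Neither differed between the libraries at the threshold (adjusted p = 1 and 0.963 by Fisher's exact test, described further on).

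Of proteasome genes 10 of 45 held 13 models, among them PSME1 and PSME2, subunits of the interferon-inducible activator, with 19 and 15 reads and with 15 and 16 reads. The ubiquitin list held 3 models in 2 of 29 genes, and 1 model in each gene took most of these reads. UBE2D2, a ubiquitin-conjugating enzyme, had ENCODEHT000412105 with 80 and 57 reads (28.2% and 19.0%), and its relative UBE2D3 had ENCODEHT000335401 with 73 and 50 reads (20.1% and 12.6%). Among translation factors 11 of 57 genes held 24 models, and EEF1A1, which brings tRNA to the ribosome, had 5. Its leading models had 209 and 144 reads and 112 and 74 reads, but only 1.20% and 0.651%, and 0.645% and 0.335%, of the gene. EEF1A1 has many pseudogene copies, and its counts are uncertain for that reason.

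Spliceosome and RNA binding genes held 16 models in 8 of 59 genes. HNRNPK, a poly(C)-binding hnRNP, had 6 models, all of 16 exons, with 158 and 54 reads together (18.9% and 6.26% of the gene). HNRNPA1 had ENCODEHT000636725 with 64 and 41 reads (2.86% and 1.72%), and HNRNPL had ENCODEHT000459860 with 43 and 38 reads (15.03% and 10.7%). All 6 HNRNPK models had fewer reads in replicate 2. Cytoskeleton genes held 14 models, among them ACTG1 (35 and 34 reads) and MYL6B (31 and 32 reads). Chaperone genes held 7, among them FKBP8 (31 and 45 reads) and CCT3 (24 and 12 reads). The snoRNA hosts, whose introns carry small nucleolar RNAs, held 8 in 3 of 12 genes, with GAS5 at 31 and 31 reads and SNHG5 at 12 and 13 reads for their leading models. Outside all lists were 370 models in 285 genes.

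Next, each model's reads were taken as a share of all reads of its gene, all classes included. The median share was 2.23% in replicate 1 and 1.60% in replicate 2 (mean over libraries 1.91% ± 0.448, SD, n = 2), and the range was 0.0346% to 85.7% and 0.0226% to 81.8%. Known models chosen by the same count had a median of 35.3% and 21.7%, ISM models 5.15% and 7.20%, and NNC models 2.14% and 1.88%. All 764 NIC models had 2 or more exons, and for known models with 2 or more exons the medians were 31.8% and 18.7%. NIC models thus lay close to NNC models and far below known models. Among the 764, 276 (36.1%) had under 1% of their gene in both libraries. Without the immunoglobulin genes the medians were 3.05% and 2.02%, and 187 of 656 (28.5%) were under 1% in both.

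**Figure D3:**
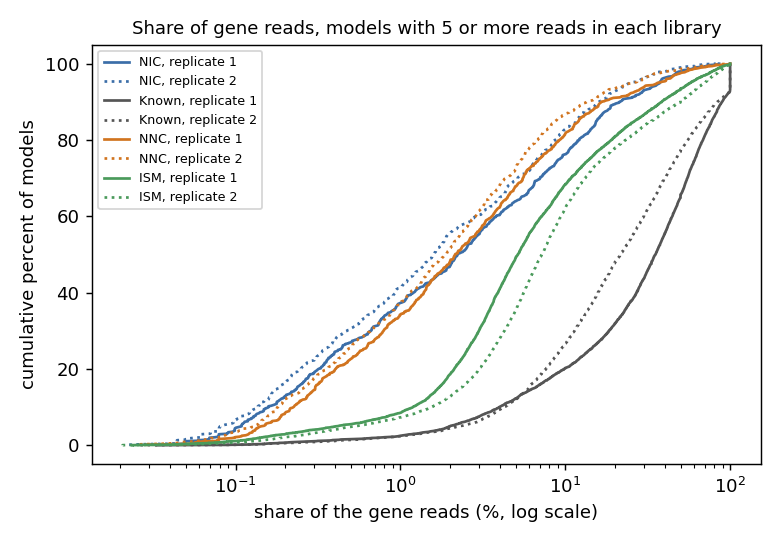
Cumulative percent of models (vertical) by their share of the gene's reads (horizontal, log scale), for NIC, known, NNC and ISM models with 5 or more reads in each library; solid lines are replicate 1 and dotted lines replicate 2. The NIC curves (medians 2.23% and 1.60%) run near the NNC curves and to the left of the ISM and known curves.

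A small number of models were the main form of their gene. Over 50% of the gene's reads in both libraries went to 8 of the 764 (1.05%), against 1281 of 5840 known models (21.9%), 449 of 7648 ISM models (5.87%) and 11 of 796 NNC models (1.38%) in annotated genes. Among known models with 2 or more exons it was 770 of 5223 (14.7%). The count of 8 became 16 in replicate 1 alone, and 40 when genomic and ISM models were left out of the gene total of both libraries. OAZ1 ENCODEHT000304615 held 80.8% and 61.7% of 1506 and 1733 reads. NME1-NME2 (chr17:51153590-51171744, plus strand), a readthrough of neighbouring nucleoside diphosphate kinase genes, had ENCODEHT000465592 with 78 of 107 and 87 of 123 reads (72.9% and 70.7%). Its 5 exons stood against 8 in NME1-NME2-202, and because the readthrough overlaps NME1 and NME2, assignment among these genes is uncertain. MPC1, a subunit of the mitochondrial pyruvate carrier, had ENCODEHT000668643 with 46 of 76 and 54 of 101 reads (60.5% and 53.5%). POPDC2, a cyclic AMP-binding membrane protein gene known from heart and muscle, had ENCODEHT000461117 with 35 of 63 and 55 of 92 reads (55.6% and 59.8%), and no annotated POPDC2 model had a read. This POPDC2 model had 3 exons and only 420 bases, and whether its reads come from that gene was not tested. The other 4 were in FAM216A, IGHG4, SDHAF3 and the lincRNA gene AC092723.3, each with 45 gene reads or fewer per library.

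Other models with a high mean share crossed or missed that line. UCHL3, a ubiquitin hydrolase, had ENCODEHT000252154 with 24 and 29 reads (46.2% and 43.3%), and COQ4, needed for coenzyme Q synthesis, had ENCODEHT000597297 with 37 and 31 reads (45.7% and 41.9%). IDH3G, a subunit of the mitochondrial NAD-linked isocitrate dehydrogenase, had ENCODEHT000497205 with 63 and 49 reads (51.2% and 38.3%). UROS, an enzyme of heme synthesis, had ENCODEHT000695473 with 68 and 47 reads (51.9% and 33.1%). EMID1 had ENCODEHT000302041 with 85 and 65 reads (73.3% and 47.8%). The falls in UROS and EMID1 were called (adjusted p = 0.0148 and 0.000713 by Fisher's exact test, described further on). Without genomic and ISM models neither was called, and the changes were -2.32 and -10.3 points. The annotated model with the most reads had few: 5 and 4 reads in EMID1, 4 and 7 in UROS, and 1 and 0 in IDH3G. Over all comparable models, 91 of 608 had more reads in both libraries than the leading annotated model of their gene, and 77 of 764 were the leading spliced-class model of their gene in both. In 11 of 427 genes the NIC models together held over 50% in both libraries.

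Pearson's r of the log2 share between the libraries was 0.972 across the 764 models, and 631 models (82.6%) lay within 2-fold. The models were chosen for reads in both libraries and share libraries and genes, so these values describe the set and do not measure repeatability. Of the 764, 591 (77.4%) had a lower share in replicate 2.

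For structure, each model was set beside the annotated model of its gene with the most reads. A comparison was possible for 608 models, since 156 (106 of them in immunoglobulin genes) were in genes where no known model had a read. The median exon number of the 764 was 6 (range 2 to 30), the same as the 6 of known models with 2 or more exons. Without the immunoglobulin genes the NIC median was 7. Of the 608, 342 (56.3%) had the same exon number as the annotated model, 142 (23.4%) had fewer and 124 (20.4%) had more. Most with fewer had an exon number lower by 1 (124 models). Of those with more, 57 had 1 more and 56 had 5 or more, and for 49 of the 56 the leading annotated model had 1 to 4 exons.

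KDM1A, a histone demethylase, had ENCODEHT000321842 of 20 exons beside the 1-exon KDM1A-206. ARHGAP17, a GTPase activator, had ENCODEHT000297891 of 19 exons beside a model of 1 exon, and TBC1D1, a Rab GTPase activator, had ENCODEHT000257724 of 19 exons beside a model of 2. In these genes the leading annotated model had 1 or 2 exons, with 2810 bases in KDM1A, 1616 in ARHGAP17 and 613 in TBC1D1. On the other side, EMID1 ENCODEHT000302041 had 4 exons beside 15, MAD1L1 (a mitotic checkpoint gene) had ENCODEHT000230904 with 4 beside 17, and DDX56 (a nucleolar helicase gene) had ENCODEHT000324614 with 5 beside 14.

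**Figure D4:**
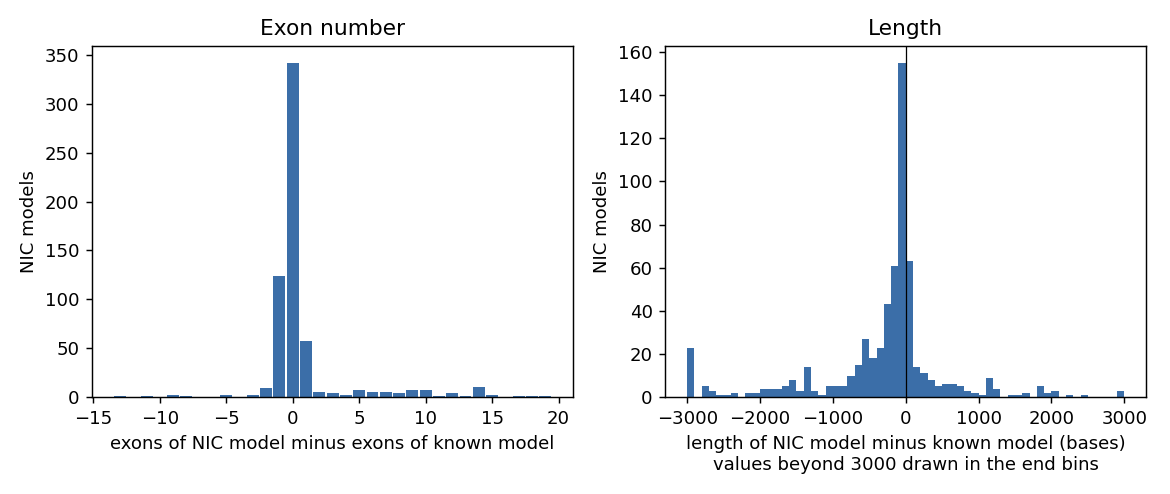
Exons (left) and length in bases (right) of the 608 comparable NIC models minus those of the annotated model with the most reads in the same gene; bars count models, and length differences beyond 3000 bases are drawn in the end bins. The exon difference peaks at 0 (342 models), and the length difference lies mostly below 0 (452 models).

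The NIC models were mostly shorter than the annotated model. Their median length was 1137 bases (range 194 to 5067), against 1614 for known models, 1116 for ISM and 989.5 for NNC models. For known models with 2 or more exons it was 1639. Without the immunoglobulin genes the NIC median length was 1234.5 bases. Of the 608, 452 (74.3%) were shorter, 154 were longer, and the median difference was -93 bases. Among the 342 with an equal exon number 282 (82.5%) were shorter, with a median of -100 bases. Known models carry their annotated length in the table, and how the length of an NIC model was set is not given in the sources used here. CYREN ENCODEHT000461776 had 5067 bases, the most of any of the 764, beside 1579, and VCP ENCODEHT000572341 had 17 exons and 3752 bases beside the 508 bases of VCP-204. EPN1 ENCODEHT000580819 had 2449 bases beside 16219, CMC2 ENCODEHT000404441 had 830 beside 10301, and SKP1 ENCODEHT000385697 had 1466 beside 9474.

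Set against all annotated transcripts of the gene, read or not, 110 of 759 models (14.5%) had more exons than any, and 98 of the 110 were in immunoglobulin genes. Longer than any were 144 (19.0%). Equal in both exon number and length to an annotated transcript were 7, in ATPAF2, RPL3, PKM, IGHG1, RPL35A, FDPS and COQ4. PKM, the pyruvate kinase gene with mutually exclusive exons, had 9 NIC models in all, with 11.2% and 5.65% of its 3372 and 3749 reads, and the one of this size, ENCODEHT000369694 (11 exons, 2318 bases), had 95 and 38 reads.

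The libraries were then compared, model by model, as a test of these 2 libraries and not of conditions. Within each gene, the model's reads against the gene's other reads were tested with Fisher's exact test (two-sided) on all models with 5 or more reads in each library in annotated genes, with Benjamini-Hochberg adjustment over 18794 models. Of these, 19.7% were called at an adjusted p under 0.05, 10.6% higher in replicate 2 and 9.13% lower. Of the 759 NIC models tested, 84 (11.1%) were called, 2 of them higher and 82 lower. The 10.8% called lower compares with the 9.13% of all models, while in known models it was 1443 of 5392 (26.8%) and in NNC models 54 of 794 (6.80%). ISM models went the other way, with 1161 of 7608 higher and 124 lower. Because a model had to have 5 reads in each library to be in the set, models that fell below that were not tested. When the genomic and ISM models were left out of the gene total, 16 of 756 NIC models (2.12%) were called, 6 higher and 10 lower, beside 410 of 6631 models of all classes kept (6.18%).

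Among the called falls, VCP stood out. VCP (chr9:35056064-35073249, minus strand) encodes an ATPase that extracts ubiquitinated proteins, and its 17-exon model ENCODEHT000572341 had 162 of 401 reads in replicate 1 and 48 of 372 in replicate 2. The share fell from 40.4% to 12.9% (log2 ratio -1.65, adjusted p = 1.89e-16 by Fisher's exact test), and adjusted p was 2.87e-06 without the genomic and ISM models. OAZ1 ENCODEHT000304615 also fell in both forms of the test (log2 ratio -0.39, adjusted p = 4.29e-31, and 3.48e-14 without those models). In IGLV2-14, ENCODEHT000282497 fell from 16.1% to 11.5% (adjusted p = 9.04e-21, and 0.00404 without those models).

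Other falls were not called once both genomic and ISM models were left out; with genomic models alone left out, those described next stayed under the threshold except ATPAF2 (adjusted p = 0.0537 by Fisher's exact test). DCAF13, a ribosome biogenesis gene, had ENCODEHT000536400 at 62 and 29 reads, and its share fell from 63.9% to 26.9% (adjusted p = 3.17e-06 by Fisher's exact test, 0.167 without genomic and ISM models, where the change was -20.7 points). ACTA2, smooth muscle actin, had ENCODEHT000685427 at 57.5% and 22.2% (adjusted p = 0.00519 and 0.544), and without those models the change was -22.1 points. ATPAF2, an assembly factor of ATP synthase, had ENCODEHT000317372 at 60.5% and 28.6% (adjusted p = 0.0481 and 0.435). Its change was -32.0 points over the full total and -26.7 without those models. These rest on 23 and 12 reads in ACTA2 and 23 and 10 reads in ATPAF2. MGAT4B, a glycosyltransferase, had ENCODEHT000525207 at 47.1% and 15.9% (adjusted p = 0.00383 and 0.749, changes of -31.2 and -17.4 points). SLC2A6, a sugar transporter gene, had ENCODEHT000607600 at 38.3% and 10% (adjusted p = 0.00449 and 0.338), and the change was as large without those models (-30.6 points) as with them (-28.3). For HLA-DRB1 ENCODEHT000582653 the fall (adjusted p = 0.000497) became a difference of 1.18 percentage points upward without those models (adjusted p = 0.958), and for HLA-B ENCODEHT000565681 adjusted p went from 3.81e-06 to 0.891.

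The 2 models called higher in replicate 2 rested on few reads. PHB2, a prohibitin of the inner mitochondrial membrane, had ENCODEHT000602192 with 5 of 735 and 22 of 815 reads, a rise from 0.680% to 2.70% (log2 ratio 1.99, adjusted p = 0.0188 by Fisher's exact test). HLA-DQB2, a class II beta chain gene, had ENCODEHT000586579 with 5 of 81 and 13 of 60 reads, a rise from 6.17% to 21.7% (log2 ratio 1.81, adjusted p = 0.0489). Without the genomic and ISM models adjusted p was 0.00627 for PHB2 and 0.021 for HLA-DQB2. IGHA2 ENCODEHT000424490 was not called over the full gene total (6.38% and 7.54%, adjusted p = 0.104), but rose without those models (adjusted p = 6.44e-16).

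By list, called falls were 6 of 116 ribosomal protein, 15 of 108 immunoglobulin, 4 of 53 MHC and 5 of 24 translation factor models. They were 8 of 16 spliceosome and RNA binding, 1 of 13 proteasome, 1 of 14 cytoskeleton and 1 of 3 ubiquitin models. The share called lower was 10.8% of all NIC models tested and 9.13% of all models of every class. The immunoglobulin falls were 9 in IGLV2-14 and 6 in IGHA2. Models of the same gene share its total, so such calls are not independent. The spliceosome models were long (median 2577 bases) with a median log2 ratio of the share of -1.29, and HNRNPK gave 5 of the 8 called. None of the respiratory chain, mitochondrial ribosomal, chaperone, snoRNA host or B cell models was called by Fisher's exact test. Of the 49 models in these lists, 3 had an unadjusted p under 0.05, and the binomial test described next called 1, a chaperone model.

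Taken as reads per library total, without the gene total, an exact binomial test gave a similar count: 79 of 764 models, 2 higher and 77 lower, against 16.3% of 19733 models called (8.57% higher and 7.76% lower). IGHA2 ENCODEHT000424490 was among the 2 called higher (272 and 448 reads, adjusted p = 6.22e-06 by the exact binomial test).

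The change in share went with model length. In the shortest 191 models (194 to 832 bases) the median log2 ratio of replicate 2 to replicate 1 was -0.19, and 65.4% were lower in replicate 2. In the following 3 length ranges it was -0.32 (72.9% lower), -0.43 (82.1%) and -0.79 (89.0%, 1721 to 5067 bases). Known models of the same length ranges had medians of 0, -0.18, -0.41 and -0.67. Replicate 2 also had the larger share of incomplete models, and the part of read completeness in the falls of the NIC models was not tested.

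**Figure D5:**
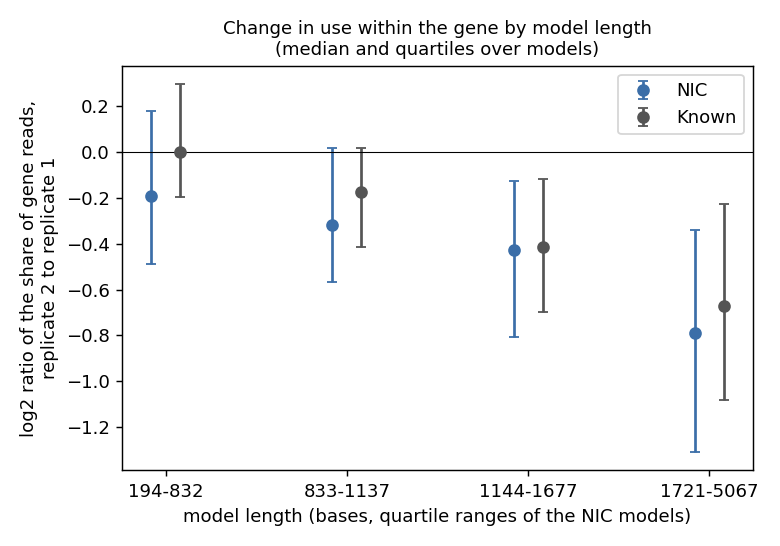
Log2 ratio of the share of gene reads, replicate 2 to replicate 1 (vertical), for NIC and known models in the 4 length ranges of the NIC models (horizontal, bases); points are medians over models and bars run from the lower to the upper quartile. Both classes go down with length, NIC models from -0.19 to -0.79.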

How the data were processed

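The authors deposited 1 table of whole-number read counts per transcript model for 2 direct RNA libraries of GM12878, with each model's class, exon number and length. The table's name gives TALON, and minimap2 and hg38 are named in the submitters' processing notes; versions, annotation release, filters and use of strand are not given in the sources used here. Members, lists and tests were chosen with earlier results of these data known.

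NIC models with 5 or more reads in each library were kept, and shares were taken over all reads of the gene in the library. Fisher's exact test (use within the gene) and an exact binomial test (counts per library total, CPM) ran on every model with 5 or more reads in each library, calls being made at a Benjamini-Hochberg adjusted p under 0.05. Both were run on simulated counts drawn by the same sampling that the tests assume, so that run does not check variation beyond counting error. The 2 tests take reads as independent, so they cover counting error only and not variation among cultures. Models named are the 15 with the highest lower count, the 10 with the highest share in genes of 50 or more reads, the genes with most models, the 3 most extreme each way in exons and length, the 5 largest called rises and falls, and the 2 most abundant per list. NCF1B, PMS2P1, SMG1P6, AC004967.1, FAM216A, IGHG4, SDHAF3, AC092723.3, IGHG1, IGKV1-16, TRAC, TRBC2, CDK1, OAZ2, GPX4, SELENOH, the genes listed only by their number of models and the 7 models equal to an annotated size were chosen after their values were seen. Library totals were 1360368 and 1510998 reads, so 5 reads are 3.68 and 3.31 CPM. Both count columns were used. Positions and sequences are from GENCODE 29 and GRCh38. Alternatives changed the read minimum, the gene total, the annotated model compared, the libraries, and the scaling (edgeR 4.0.16 TMM, DESeq2 1.42.0 size factors). Software was Python 3.11.15, scipy 1.17.1, pandas 2.3.3 and R 4.3.3. One B cell marker is not reported here.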

Additional observations from a re-analysis of the deposited data

How the results depend on the processing

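With a minimum of 3, 10 or 20 reads in each library the set held 1349, 370 or 162 NIC models, and with 5 reads in 1 library alone it held 961 (replicate 2) to 1388 (replicate 1). The latter alternative was chosen after seeing the data. At 20 reads the within-gene test called 47 models (0 higher; 29.2%, beside 46.1% of all models) and the CPM test 43 (3 higher; 26.5%, beside 38.0%). Leaving out immunoglobulin genes raised the mean of the median shares to 2.53%. Leaving genomic and ISM models out of the gene total gave 3.45%, 40 models over 50% in both libraries and 16 called in the within-gene test; what moved these was not tested. One library alone gave medians of 1.60% to 2.23% and 8 to 16 models over 50%, 16 without replicate 2. Set beside the annotated model with the most exons, 48.4% had an equal number, and beside the longest one 84.5% were shorter; where an annotated model with 5 reads in each library was required, the values were 60.2% and 78.6%. With one library alone they were 55.7% to 57.0% and 74.6% to 75.2%. Calls of the CPM test were 96 with TMM and 96 with DESeq2 factors (12.6%, beside 16.6% of all models with either).

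Among the 60 named models, leaving genomic and ISM models out of the gene total turned the direction of 4 called falls, to 0.828 and 0.405 percentage points upward for IGLV2-14 ENCODEHT000276769 and ENCODEHT000276767, 1.18 for HLA-DRB1 and 2.54 for UBE2D3. Another 12 were no longer called and 1 became called; some of the 12 kept or enlarged their change, such as KDM1A (-9.68 to -16.9 points), ARHGAP17 (-11.3 to -17.0) and SLC2A6 (-28.3 to -30.6). Leaving out genomic models alone ended 2 calls and added 1. No paired analysis was possible because the series has a single group. At 5 reads, a change of share must be large to be called.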
